A study of Homo sapiens with 6 samples.

Results

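The L6 family of tetraspanin-like membrane proteins was examined in RNA-seq of Hep3B cells, an established line of human hepatocellular carcinoma. Its 6 genes, TM4SF1, TM4SF4, TM4SF5, TM4SF18, TM4SF19 and TM4SF20, were taken by symbol from the 23228 genes of the count tables. The series holds 3 control libraries, from cells with a non-targeting shRNA, and 3 libraries labelled PELP1-KD, from cells with shRNA against PELP1, a scaffold protein of chromatin and ribosome assembly complexes. Both kinds of cell were made by lentiviral transduction, and the labels describe the knockdown cells as pooled stable clones kept under puromycin. The labels name both PELP1 shRNAs in the protocol but only the first in the titles, so which was used is not certain. They also do not say whether replicates were separate cultures, so p values here measure the spread between libraries, which may be technical. The family was picked because the difference between these same groups was already known for TM4SF4, a gene that the study also measured by RT-qPCR. The values of its members between the groups are therefore given as a description, without a test.

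L6 proteins cross the plasma membrane repeatedly, like tetraspanins, and join integrins, growth factor receptors and other membrane proteins into clusters that affect adhesion and migration. TM4SF4 is made mainly in liver and intestine. TM4SF5 is expressed in hepatocytes and is known for its link to liver fibrosis and to arginine sensing at the lysosome. TM4SF1 was found as an antigen of carcinoma cells and is abundant in endothelium, where TM4SF18 is also expressed. TM4SF19 is known from osteoclasts, and TM4SF20 from intestine. TM4SF20 also controls the cleavage of the transcription factor CREB3L1.

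Reads assigned to genes numbered from 26758180 to 34456393 per library. PELP1, the targeted gene, was at 4893, 4914 and 5102 normalized reads for control and at 4421, 4825 and 4840 for PELP1-KD, where a normalized read is a read after scaling for library size. The latter mean was 94.5% of control, giving −0.08 on the log2 scale (standard error, SE, 0.04, adjusted p = 0.101 from edgeR, 0.0106 with the replicate number as a block and 0.0179 without PELP1-KD replicate 3). Because PELP1 RNA lay this close to control, groups are named by their labels and each direction is that of the labels. PELP1 protein was not analysed here. Hepatocyte markers matched the labelled cell type, with summed levels over 7 genes between 9319 and 9537 RPKM (reads per kilobase of exon and per 1000000 scaled reads) in control and between 8510 and 8668 in PELP1-KD. They did not move together, since mean RPKM was 4921 and 3219 for ALB, 564 and 409 for SERPINA1 and 101 and 66.1 for TTR, but 2215 and 3415 for AFP. Of 6 endothelial markers, 5 had at most 3 reads in any library, including CDH5, KDR and TEK at 0. Of the other cell types, too, a few genes carried each sum while other markers were level or ran the other way. Summed RPKM of 6 stellate cell markers was between 10.2 and 11.1 in control and between 17.2 and 17.5 in PELP1-KD, and that of 6 macrophage markers between 35.8 and 38.8 and between 48.9 and 53.2. PDGFRB, a stellate cell marker, had mean RPKM of 0.802 in control and 0.182 in PELP1-KD, CD14, a macrophage marker, had 3.10 and 1.57, and PTPRC had at most 5 reads in any library. Markers of other epithelia were present as well. Summed RPKM of 4 biliary markers was between 385 and 402 in control and between 628 and 672 in PELP1-KD, and that of 4 intestinal markers was between 198 and 204 and between 243 and 252. The biliary sum followed KRT19 (281 and 524), with SOX9 at 37.8 and 36.9, and the intestinal one followed CDH17 (50.0 and 96.2), with VIL1 at 77.5 and 63.5. The part of these differences in the results below was not tested.

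Of the 6 family members, 4 had reads in every library and passed the filter on low counts, namely TM4SF1, TM4SF4, TM4SF5 and TM4SF20. Counted by the threshold used for all genes, an adjusted p below 0.05 from edgeR, 2 of these 4 were lower and 1 was higher in PELP1-KD, where 53.6% of the 14537 tested genes passed in either direction. At a change of at least 2-fold as well, 1 was lower and 0 were higher, where 4.79% and 2.85% of tested genes passed (7.65% in either direction). The groups did not overlap for 3 of the 4, 2 of them lower and 1 higher, as for 58.8% of tested genes (29.3% lower and 29.5% higher). Nothing is read from these counts, since the same contrast chose the family. In these cell pools, fewer cells with a transcript and less of it per cell cannot be told apart.

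The TM4SF4 gene spans 149192368 to 149221181 of chromosome 3 (hg19, plus strand). None of its 1607 exon bases is shared with another gene of the annotation. Control libraries contained 1850, 1678 and 1719 reads of it, and PELP1-KD libraries 150, 138 and 170. Every control library thus held many times the reads of every PELP1-KD library. After normalization these were 1648 ± 44.4 and 161 ± 8.12 reads (mean ± SD, n = 3), a level in PELP1-KD of 9.80% of control. This is −3.35 on the log2 scale (SE 0.07), number 99 from the lowest of 14537 tested genes. By summed reads scaled for library size, control stood 10.2-fold over PELP1-KD (95% counting interval 9.27 to 11.3). The coefficient of variation was 2.69% in control and 5.03% in PELP1-KD, against 2.39% and 8.09% from counting alone, so the replicates of TM4SF4 differed by about as much as sampling gives. With any library left out, its log2 fold change stayed between −3.39 and −3.31.

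TM4SF1 lies on the same chromosome from 149086805 to 149095568 on the minus strand, 96.8 kb from TM4SF4. Its reads were 3044, 2878 and 2794 in control and 4510, 3876 and 4222 in PELP1-KD. The direction was thus opposite to that of TM4SF4, with every PELP1-KD library above every control library. The normalized means were 2738 ± 65.0 and 4452 ± 209 reads (mean ± SD, n = 3), 163% of control and a log2 fold change of 0.70 (SE 0.04). Its values in PELP1-KD varied by 4.70%, against 1.54% from counting, with the lowest in replicate 3. The log2 fold change lay between 0.67 and 0.74 with any library left out.

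TM4SF5 lies on chromosome 17 from 4675187 to 4686506 on the plus strand. It is 67.6 kb from PELP1. It had 927, 984 and 793 reads in control and 498, 428 and 519 in PELP1-KD, again without overlap. The normalized means were 850 ± 93.3 and 509 ± 9.50 reads (mean ± SD, n = 3), which is 59.9% of control and a log2 fold change of −0.74 (SE 0.07). Among the 3 members with over 100 reads it was the least even in control, at 11.0% against 3.33% from counting, since control replicate 3 lay low and replicate 2 high. Left-out libraries moved its log2 fold change between −0.81 without control replicate 3 and −0.66 without control replicate 2.

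**Figure D1:**
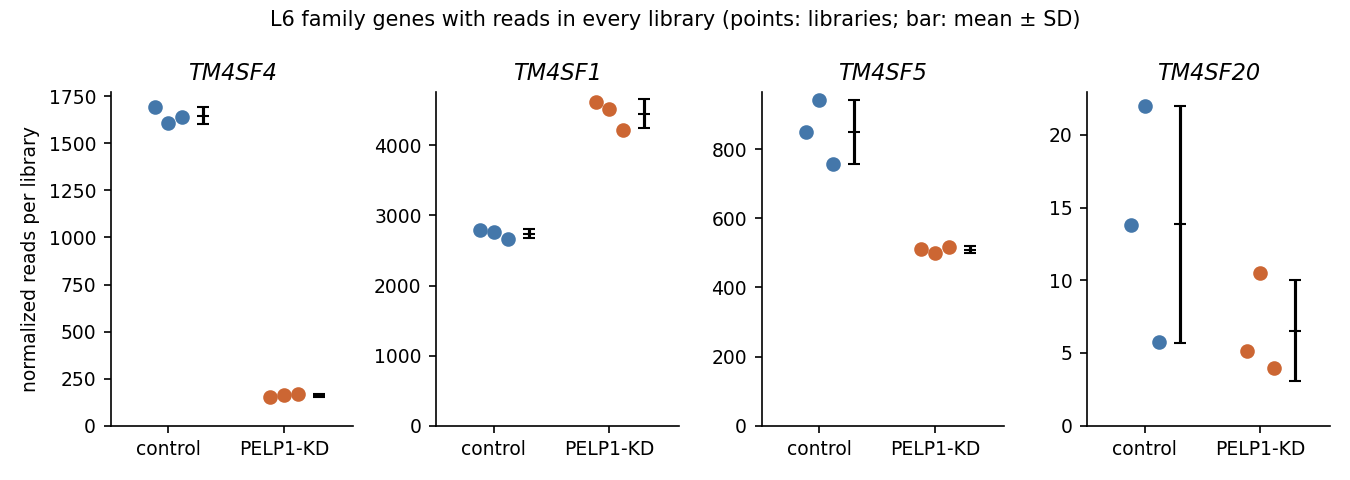
Normalized reads per library (y axes from 0, a scale of its own in each panel) of the 4 L6 family genes with reads in every library, in control and PELP1-KD, with the mean and SD (n = 3) beside the points. The groups are apart for TM4SF4 (1648 against 161), TM4SF1 (2738 against 4452) and TM4SF5 (850 against 509), and overlap for TM4SF20.

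The bases before the annotated starts of the 3 abundant members are shown because TM4SF4 and TM4SF1 lie close together and differed between the groups in opposite directions. They are the 250 bases upstream of the start in the tables, read 5′ to 3′ on the strand of the gene from GRCh37, the same assembly as hg19. Capitals mark matches to the motifs listed after the sequences.
TM4SF4, chr3:149192118-149192367, plus strand: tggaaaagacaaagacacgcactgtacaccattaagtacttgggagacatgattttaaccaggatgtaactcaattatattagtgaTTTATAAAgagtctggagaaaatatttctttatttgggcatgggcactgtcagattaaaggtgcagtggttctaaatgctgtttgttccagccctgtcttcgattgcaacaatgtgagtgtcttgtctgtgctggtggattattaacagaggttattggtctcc
TM4SF1, chr3:149095569-149095818, minus strand: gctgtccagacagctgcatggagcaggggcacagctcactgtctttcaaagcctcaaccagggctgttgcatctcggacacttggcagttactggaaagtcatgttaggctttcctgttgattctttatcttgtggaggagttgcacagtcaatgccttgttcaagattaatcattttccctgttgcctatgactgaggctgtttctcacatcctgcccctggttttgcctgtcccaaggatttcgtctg
TM4SF5, chr17:4674937-4675186, plus strand: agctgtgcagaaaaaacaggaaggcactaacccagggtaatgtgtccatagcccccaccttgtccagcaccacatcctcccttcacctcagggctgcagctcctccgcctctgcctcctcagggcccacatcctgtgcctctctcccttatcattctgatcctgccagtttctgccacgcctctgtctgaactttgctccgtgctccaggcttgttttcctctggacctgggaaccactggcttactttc
Both strands were searched for the TATA box (TATAAA), the HNF4 site (CAAAGTCCA), and the C/EBP (TTGCNNAA), AP-1 (TGANTCA) and TEAD (GGAATG) sites, none of which lies within another. TM4SF4 held TATA box letters between 164 and 157 bases before the start, read on both strands. Over 22916 genes, 9.59% of windows of this length held the TATA box, 0.297% the HNF4 site, 7.89% the C/EBP site, 5.19% the AP-1 site and 10.9% the TEAD site. The windows of TM4SF1 and TM4SF5 matched none of these motifs, which says only that these letters are not there. Their GC contents were 39.2% for TM4SF4, 49.2% for TM4SF1 and 56.4% for TM4SF5, against a median of 60.0%. The last 8 bases before TM4SF5 lie in an exon of the GENCODE annotation.

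The remaining members were rare. TM4SF20 spans 228226874 to 228244022 of chromosome 2, and control libraries contained 15, 23 and 6 reads of it and PELP1-KD libraries 5, 9 and 4. Its groups overlapped, and control replicate 3 lay among the PELP1-KD values. The summed reads were 44 against 18. Scaled for library size, they put control 2.18-fold over PELP1-KD (95% counting interval 1.23 to 4.0). The log2 fold change was −1.10 with a standard error of 0.51. It moved between −1.58 without PELP1-KD replicate 2 and −0.61 without control replicate 2. TM4SF18, on chromosome 3 from 149036285 to 149051548, had 1 read in control replicate 2 and 0 in the other 5 libraries. A count of 0 in a library allows at most 3 reads, or between 0.022 and 0.028 RPKM for its 3925 exon bases. It lies 35.3 kb from TM4SF1, so a gene without detectable RNA adjoins the most abundant one of the family. TM4SF19, on chromosome 3 from 196050417 to 196065291, had 0 reads in 5 libraries and 3 in PELP1-KD replicate 3. At this depth no difference was detectable for either gene.

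The readthrough gene TM4SF19-TCTEX1D2, annotated as a joint transcript with the neighbouring TCTEX1D2, had 108, 116 and 114 reads in control and 92, 69 and 94 in PELP1-KD. It shares 861 of its 1008 exon bases with TM4SF19 and 134 with TCTEX1D2, and 13 are its own. A read on bases shared with TM4SF19 would also have been assigned to TM4SF19, which was at 0 in 5 of 6 libraries, so nearly all of these reads lay on the TCTEX1D2 end and its own bases. They carry no measure of TM4SF19. Its log2 fold change was −0.24 (SE 0.14, adjusted p = 0.146 from edgeR).

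Levels of different genes were compared per exon length, in RPKM. In control the order was TM4SF1 (51.5 ± 1.22), TM4SF5 (38.2 ± 4.19), TM4SF4 (32.6 ± 0.879), TM4SF20 (0.192 ± 0.113), with TM4SF18 and TM4SF19 at or near 0 (mean ± SD, n = 3). TM4SF5 and TM4SF4 were close neighbours in this order, from 34 to 42.4 and from 31.8 to 33.6 RPKM over the libraries, and their means differed by little more than the SD of TM4SF5. In PELP1-KD the order was TM4SF1 (83.8 ± 3.94), TM4SF5 (22.9 ± 0.427), TM4SF4 (3.2 ± 0.161) and TM4SF20 (0.0907 ± 0.0482), and the first 3 lay far apart. Among all genes with a read, the mean level of TM4SF4 stood at percentile 85.7 in control and 44.5 in PELP1-KD. TM4SF1 stood at 90.9 and 94.8, and TM4SF5 at 87.7 and 80.2.

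The makeup of the family differed more between the groups than its total. Summed over the 6 members, control libraries reached 124, 126 and 117 RPKM and PELP1-KD libraries 113, 111 and 106. TM4SF4 made up between 25.2% and 27.8% of this sum in control and between 2.69% and 3.17% in PELP1-KD. The share of TM4SF1 was between 41.0% and 43.0% in control and between 74.7% and 76.9% in PELP1-KD, and that of TM4SF5 between 29.1% and 33.5% and between 20.2% and 21.9%. These shares depend on each other within a library. The ratio of TM4SF4 to TM4SF1, which needs no scaling between libraries, was between 0.614 and 0.647 in control and between 0.0350 and 0.0424 in PELP1-KD.

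**Figure D2:**
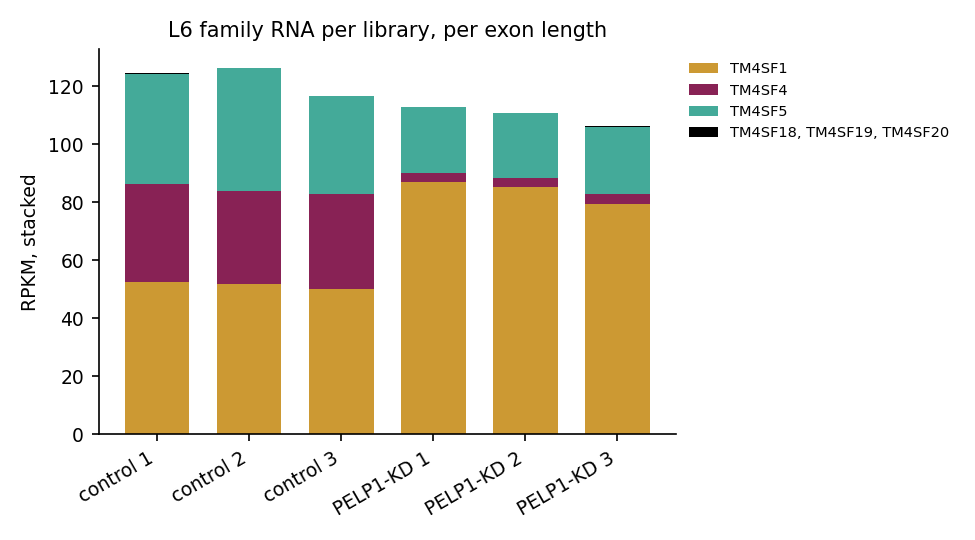
Level of each L6 family gene in RPKM (y axis), stacked in 1 bar per library for 3 control and 3 PELP1-KD libraries. The bars reach 117 to 126 RPKM in control and 106 to 113 in PELP1-KD, where TM4SF4 shrinks to about 3% of the bar and TM4SF1 takes over 74%.

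Of 14 transcription factors of hepatocytes and related endoderm, 13 were tested, and 2 fell and 7 rose in PELP1-KD (adjusted p below 0.05 from edgeR, where 26.8% of tested genes passed in each direction). With DESeq2 5 rose, and with any library left out between 5 and 7 did. The median log2 fold change of the list was 0.10, against 0.00 over all tested genes, and none changed 2-fold. NR1H4, the bile acid receptor, fell by 0.17 on the log2 scale (adjusted p = 0.00201 from edgeR). HNF4A, GATA4 and GATA6 rose, with log2 fold changes of 0.23, 0.44 and 0.40. NKX2-2, a factor of pancreatic islets, had 0 reads in every library.

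The surroundings of the family genes were then described, over tested genes within 1 Mb of a member. Around TM4SF18, TM4SF1 and TM4SF4, 9 of 10 such genes fell in PELP1-KD and 0 rose (adjusted p below 0.05 from edgeR, where 26.8% of all tested genes fell and 26.8% rose). Their median log2 fold change was −0.38, against 0.00 over all tested genes, and DESeq2 and the other settings left between 8 and 9 of them lower. TM4SF1 was thus higher between neighbours that were lower. AGTR1, the angiotensin II receptor gene and the only neighbour to change 2-fold, had 1173, 1144 and 1097 reads in control and 52, 40 and 53 in PELP1-KD. It lies 732 kb from TM4SF4, and its log2 fold change was −4.39 (SE 0.09, adjusted p = 1.16e-18). Without AGTR1, which the study itself picked out on these libraries, 8 of 9 neighbours fell, with a median of −0.34. The nearest tested genes on either side of the group were CP, which encodes ceruloplasmin, and WWTR1, which encodes the coactivator TAZ. CP fell from 2225 ± 50.4 to 1998 ± 58.1 reads after normalization (mean ± SD, n = 3), or −0.15 on the log2 scale (SE 0.04, adjusted p = 0.00505 from edgeR). WWTR1 fell from 585 ± 14.9 to 437 ± 39.2, or −0.42 on the log2 scale (SE 0.07, adjusted p = 6.32e-05 from edgeR). The other neighbours were singled out with their values in view. GYG1 (−0.32), HPS3 (−0.44), COMMD2 (−0.45), RNF13 (−0.34), PFN2 (−0.14) and TSC22D2 (−0.43) fell, and HLTF (−0.01) was not called. The call of PFN2 was lost without PELP1-KD replicate 1 (adjusted p = 0.0689 from edgeR), control replicate 1 (0.133) or control replicate 2 (0.0581).

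Around the other members, the counts are to be read against the 26.8% of all tested genes that fell and the 26.8% that rose. Around TM4SF5, 10 of 42 tested genes fell and 5 rose, with a median log2 fold change of −0.05. PELP1 itself is among the 42 and was not called (adjusted p = 0.101 from edgeR). ENO3, the muscle form of enolase, fell from 1259 ± 34.9 to 537 ± 11.0 reads after normalization (mean ± SD, n = 3), or −1.23 on the log2 scale (SE 0.06, adjusted p = 3.54e-13 from edgeR). SMTNL2, which was rare, rose from 8.43 ± 4.51 to 24.8 ± 11.4 (mean ± SD, n = 3), with overlapping groups and an adjusted p of 0.00407 from edgeR. Of the nearest tested genes, ZMYND15 stood at 0.01 on the log2 scale (SE 0.21), and GLTPD2 fell by 0.21 on the log2 scale (adjusted p = 0.00201 from edgeR). Around TM4SF19, 7 of 28 tested genes fell and 6 rose, with a median of −0.01, and none passed at 2-fold. TCTEX1D2, a dynein light chain gene, had a log2 fold change of −0.28 that edgeR called (adjusted p = 0.0400) and DESeq2 did not (0.113), nor did edgeR in 5 of the 6 fits without a library (0.0646 to 0.128). UBXN7 on the other side had −0.17, which was not called (adjusted p = 0.0588 from edgeR) except in other settings, such as the replicate block (0.0278) or without PELP1-KD replicate 1 (0.0101) or control replicate 1 (0.0368). Around TM4SF20, 1 of 6 fell and 4 rose, and the nearest, MFF and AGFG1, had log2 fold changes of 0.13 (adjusted p = 0.00999 from edgeR) and 0.12 (0.0153, but 0.11 without PELP1-KD replicate 2 and 0.0558 without control replicate 3).

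**Figure D3:**
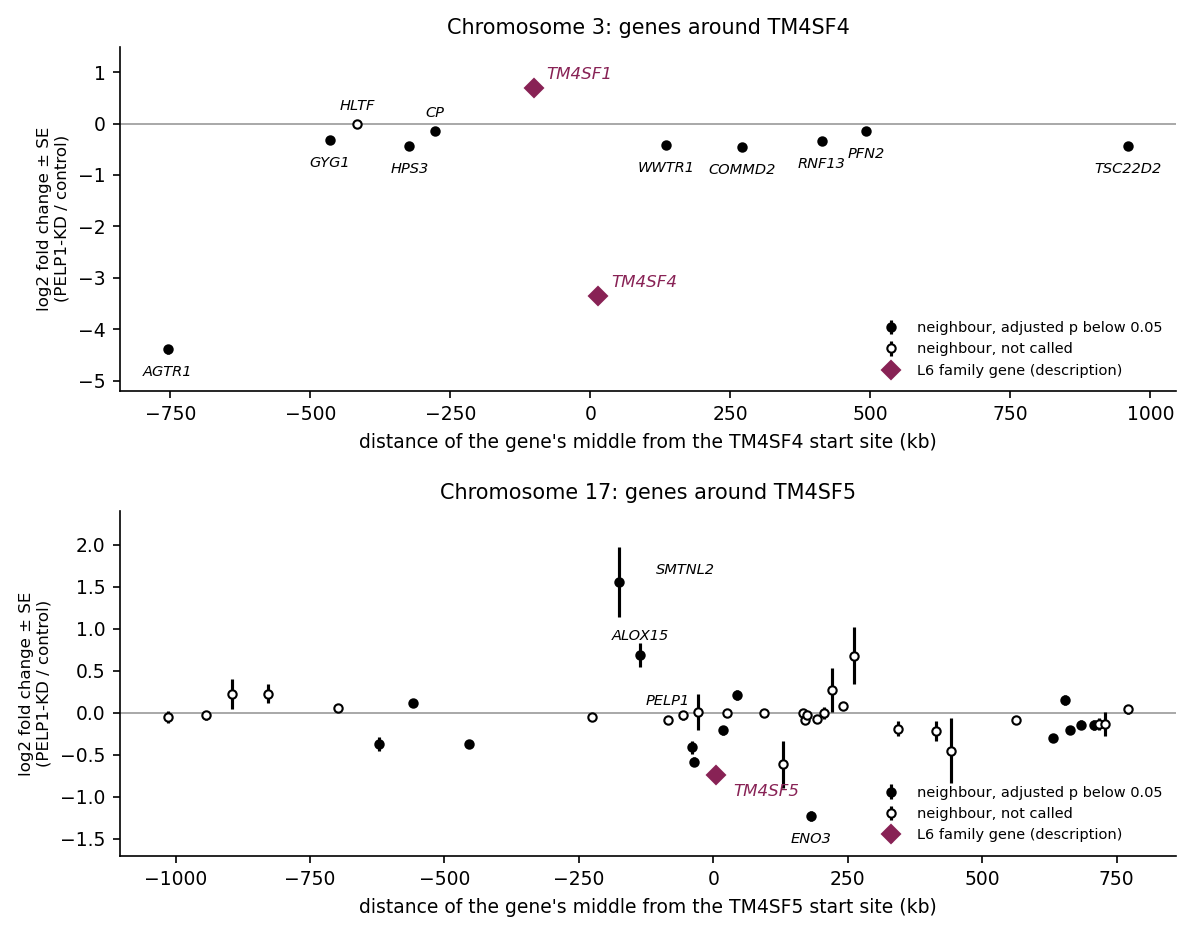
Log2 fold change of PELP1-KD over control with its standard error (y axis) for tested genes within 1 Mb, against the distance in kb of the middle of each gene from the start of TM4SF4 (top) or TM4SF5 (bottom). Filled circles passed an adjusted p of 0.05 from edgeR, open circles did not, and diamonds are family genes. In the top panel 9 of 10 neighbours are called below 0 while TM4SF1 lies above 0, and in the bottom panel called genes lie on both sides of 0.

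The tetraspanins proper, which organize membrane domains much as L6 proteins do, went both ways. Of 33 genes, 25 were tested, and 7 fell and 12 rose (adjusted p below 0.05 from edgeR, against 26.8% of tested genes in each direction), with a median log2 fold change of 0.11. CD9, a tetraspanin of cell motility and fusion, rose from 66.1 ± 16.8 to 564 ± 7.69 reads after normalization (mean ± SD, n = 3), or 3.09 on the log2 scale (SE 0.12, adjusted p = 2.31e-14). TSPAN18 and UPK1B, a uroplakin, rose with log2 fold changes of 0.84 and 1.75. TSPAN4 (−0.39), CD81 (−0.39), a hepatitis C virus receptor, and TSPAN33 (−0.54) fell. Past 2-fold, 4 rose and 2 fell, where 2.85% and 4.79% of tested genes did.

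Of 18 genes for proteins described as partners of L6 proteins, all were tested, and 5 fell and 7 rose, with a median of −0.02. Over all tested genes 26.8% passed in each direction. With the replicate number as a block, 8 fell. SLC7A1, a cationic amino acid transporter that carries arginine, fell from 1749 ± 41.3 to 602 ± 16.2 reads after normalization (mean ± SD, n = 3), or −1.54 on the log2 scale (SE 0.05, adjusted p = 4.34e-15). The integrin genes went both ways. ITGA5 and ITGB4 fell, with log2 fold changes of −0.73 and −1.12, as did ITGB1 (−0.09, with overlapping groups, adjusted p = 0.0335 from edgeR). The call of ITGB1 was lost without PELP1-KD replicate 2, control replicate 1 or control replicate 2, where 4 genes of the list fell. ITGA3 (1.17) and ITGA6 (0.18) rose. ITGA2 (−0.16) was not called (adjusted p = 0.0886 from edgeR), but was with the replicate block. CD44, the hyaluronan receptor, rose from 569 ± 29.0 to 1805 ± 76.3 (mean ± SD, n = 3), or 1.67 on the log2 scale (SE 0.06, adjusted p = 4.10e-15). EGFR and IL6R, a growth factor receptor and a cytokine receptor, rose by 0.54 and 0.69 on the log2 scale. CREB3L1, whose cleavage TM4SF20 controls, had a log2 fold change of −0.35 (adjusted p = 0.000459 from edgeR). The kinase gene MTOR (0.03) and the lysosomal arginine sensor gene SLC38A9 (−0.07, and 0.01 without control replicate 1) were not called. PTK2, which encodes focal adhesion kinase, had −0.09 and was not called (adjusted p = 0.0745 from edgeR), but was with the replicate block (0.00976) or without control replicate 3 (0.0401). These last 4, and the integrin genes other than ITGA5 and ITGB4, were named with their values in view.

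**Figure D4:**
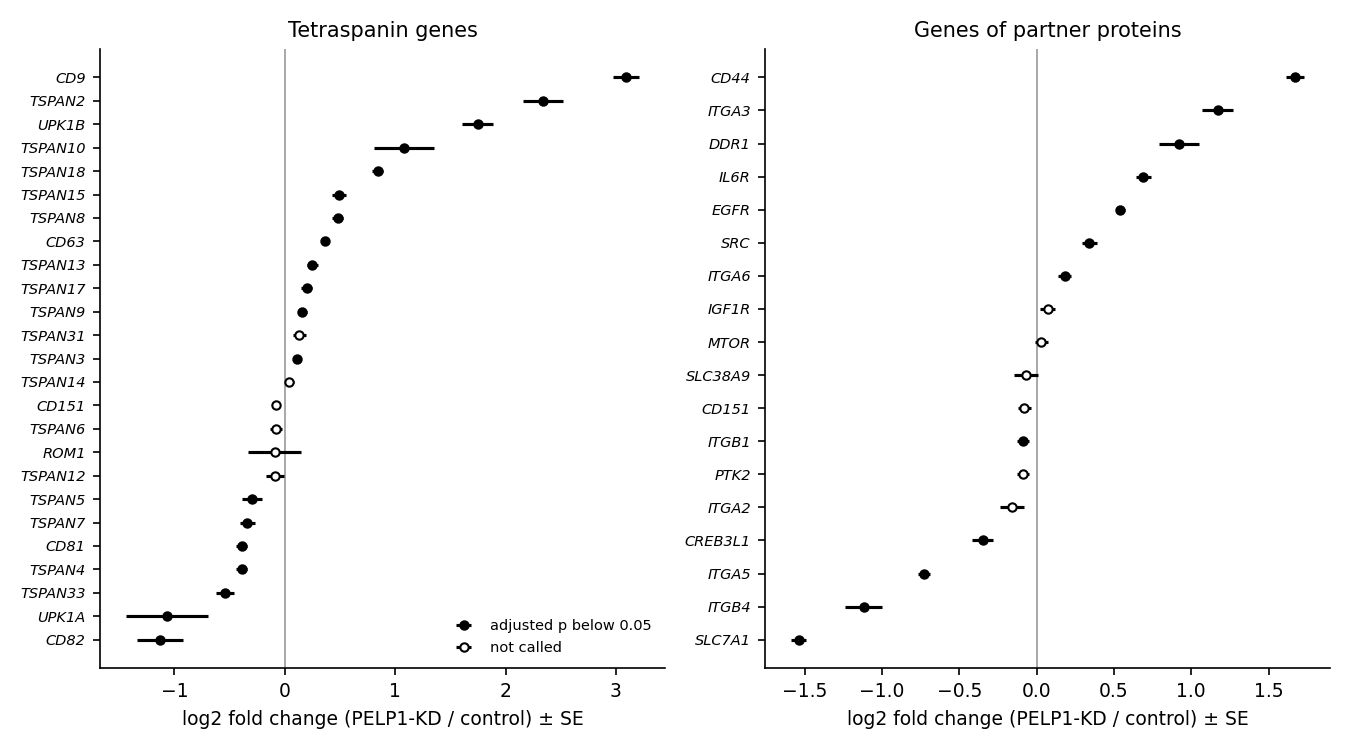
Log2 fold change of PELP1-KD over control with its standard error (x axes) for the 25 tested tetraspanin genes and the 18 genes of L6 partner proteins (y axes). Filled circles passed an adjusted p of 0.05 from edgeR and open circles did not. Both lists run from falls (CD82 and SLC7A1 lowest) to rises (CD9 at 3.09 and CD44 at 1.67).

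TM4SF4 was set beside the other liver genes that the study measured by RT-qPCR, a choice it made on these libraries. PELP1-KD held 4.13% of the control level of AZGP1, 4.75% of AGTR1, 15.8% of APOA2 and 26.8% of GHR, so TM4SF4 at 9.80% lay in the middle. Their RPKM in control spanned 3074 ± 67.6 for APOA2, 32.6 ± 0.879 for TM4SF4 and 1.83 ± 0.160 for GHR (mean ± SD, n = 3). The genes with the pattern most like that of TM4SF4 over the 6 libraries were PTK7, BRSK2, CHM, FGFR2 and LDOC1L, among 11746 genes with at least 100 normalized reads in control. Likeness was the root mean square difference of log2 normalized reads after each gene's mean was taken off, and it ran from 0.067 for PTK7 to 0.136 for LDOC1L. Because the groups lay so far apart for TM4SF4, this measure mainly matches the log2 fold change. It cannot show that genes vary together within a group. PTK7, a receptor-like pseudokinase, had 904 ± 49.0 and 83.1 ± 6.91 normalized reads, and FGFR2, a fibroblast growth factor receptor, had 666 ± 21.4 and 71.0 ± 9.30 (mean ± SD, n = 3). Their log2 fold changes were −3.44 and −3.24. None of the 5 lies on chromosome 3.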

How the data were processed

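RNA of 3 control and 3 PELP1-KD Hep3B libraries was analysed, grouped by the treatment label. The submitters' processing notes name bcl2fastq, HISAT2, SAMtools and featureCounts with hg19, and the paper's methods name TopHat2 and HTSeq, so the aligner is uncertain. Per the file headers, featureCounts 1.5.0-p1 counted reads by strand over exons of each gene with a minimum mapping quality of 2. The authors deposited estimated counts, not normalized, in which reads with several matches count as fractions. Reads over several genes were allowed. Among values of at least 20 reads of genes lying wholly within other genes, 73.0% were whole and 89 of 862 ended in 0.5 of a read, so such reads were mostly counted in each gene and not divided. The sources differ on single or paired reads and on mRNA selection or removal of ribosomal RNA.

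Estimated counts were rounded and tested with edgeR 4.0.16 (R 4.3.3, filterByExpr, TMM, glmQLFit with robust estimation, glmQLFTest, Benjamini-Hochberg over 14537 genes). Each SE was derived from the F statistic and the log2 fold change (median 0.0632). DESeq2 1.42.0 was an alternative, and both were tested on simulated data. Same-numbered libraries had correlations of 0.336, 0.247 and 0.666 of their deviations from the group mean over 6370 genes. These pass a rule of over 0.1 for every pair. Control replicate 2 with PELP1-KD replicate 1 (0.418) and control replicate 1 with PELP1-KD replicate 2 (0.244) passed it too. It thus does not single out the same-numbered pairs. Unless the replicate block is named, p values are from fits without it. Counting intervals (exact binomial) and floors of 3 reads cover counting error only. Every pair of libraries within a group differed beyond sampling noise (chi-square over degrees of freedom 1.93 or more). Of 24 introns of family genes, 23 start with GT and end with AG in GRCh37. Members and lists were chosen with earlier results of these data known. Named are all members, PELP1, the study's other liver RT-qPCR genes, the 3 genes with the smallest p in each direction of a list, the nearest tested genes and up to 3 genes past 2-fold in each direction at each locus, and the 5 genes most like TM4SF4 (log2 of normalized reads plus 0.5). A gene of the transcription factor list that this rule names is not reported here.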

Additional observations from a re-analysis of the deposited data

How the results depend on the processing

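The log2 fold changes of TM4SF4, TM4SF1, TM4SF5 and TM4SF20 moved by less than the spread between replicates under DESeq2's size factors, upper-quartile normalization, DESeq2, no filter on low counts, unrounded counts, the replicate block and each left-out library. A minimum of 10 reads in every library removed TM4SF20 and lowered the number of genes at least 2-fold lower from 697 to 424. Beside the changes of PELP1, UBXN7, PTK2, ITGA2 and the partner list, the replicate block changed no other call named here, and no other count by over 1.5 times.

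Counts of neighbours depend on the distance, since a wider window holds more tested genes. Around TM4SF18, TM4SF1 and TM4SF4, 14 of 17 genes fell and 1 rose within 2 Mb. Around TM4SF5, 5 of 27 fell and 3 rose within 500 kb, and 16 of 60 fell and 9 rose within 2 Mb. Around TM4SF19, 4 of 16 fell and 3 rose within 500 kb, and 14 of 44 fell and 6 rose within 2 Mb. The shares that fell were 18.5% and 26.7% around TM4SF5 and 25% and 31.8% around TM4SF19. Of all tested genes, 26.8% fell and 26.8% rose. With the replicate number as a block, 8 partner genes fell, against 5. With each library left out, the number of neighbours that rose was between 3 and 5 around TM4SF19 (3 without PELP1-KD replicate 1), between 3 and 7 around TM4SF5 (3 without control replicate 1 or 2) and between 2 and 4 around TM4SF20 (2 without PELP1-KD replicate 2). Without a library, ZMYND15 lay between −0.17 and 0.17, SLC38A9 between −0.12 and 0.01 and HLTF between −0.06 and 0.04. The call of AGFG1 was lost without PELP1-KD replicate 2 or control replicate 3. That of TCTEX1D2 was lost with DESeq2, without a filter and in 5 of the 6 fits without a library. The cause was not tested. At this depth TM4SF18 and TM4SF19 cannot be compared, and TM4SF20 only with a wide counting interval.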
